A study of Mus musculus with 235 samples.

Results

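The genes described here are 8 members of the FKBP family, Fkbp5, Fkbp4, Fkbp1a, Fkbp1b, Fkbp2, Fkbp3, Fkbp8 and Fkbp9. They were found by symbol among the 27998 gene rows of the count table, and each had 1 row. FKBP proteins (FK506-binding proteins, or immunophilins) carry a peptidyl-prolyl isomerase fold that binds the immunosuppressants FK506 and rapamycin. Fkbp5 encodes FKBP51, a co-chaperone of Hsp90 that lowers the hormone affinity of the glucocorticoid receptor, and its own transcription is induced by that receptor, so that it closes a short negative feedback loop. Fkbp4 encodes FKBP52, the close relative that takes the same place in the Hsp90 complex and favours movement of the receptor to the nucleus.

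Messenger RNA was measured in tissue punches from the brains of 30 male C57Bl/6 mice aged 3 months. Of these, 15 received dexamethasone, a synthetic glucocorticoid, at 10 mg/kg by intraperitoneal injection, and 15 received saline vehicle by the same route. Tissue was taken 4 h after the injection, and 8 punched areas were profiled under the labels PFC, AMY, PVN, CER, dCA1, vCA1, dDG and vDG, which the labels do not spell out. The 16 groups of region and arm held 13 to 15 libraries each, 118 vehicle and 117 dexamethasone libraries in all, and each library of a group came from another animal. No mouse was genetically modified, and 1 dose and 1 time were used.

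The libraries held 268538 to 1451422 counts (median 742957). RNA integrity numbers (RIN) ran from 2.2 to 9.0, and 24 libraries were under 5. The region labels were compared with marker genes. In the vehicle libraries Oxt, the oxytocin precursor, was highest in PVN (275 CPM on average). Prox1, a dentate granule cell factor, averaged 521 CPM in dCA1, 462 CPM in dDG and 268 CPM in vDG, and the mean log2 level of 6 further dentate genes was 6.29 in dCA1 and 5.92 in dDG. Wfs1, a marker of CA1 pyramidal neurons, was lower in dCA1 (43.0 CPM) and vCA1 (42.1 CPM) than in dDG (58.4 CPM), vDG (72.2 CPM) and AMY (97.1 CPM). Gabra6, a receptor subunit of cerebellar granule neurons, had 0 counts in the vehicle libraries of CER and of dCA1. Its median was 0 in vCA1 and vDG as well, where the means of 18.4 and 32.9 CPM rested on single libraries. Without the 4 libraries that held 157 to 289 Gabra6 counts (vCA1 vehicle replicate 15, vDG vehicle replicates 4 and 15 and vDG dexamethasone replicate 13), the means were 0.169 and 5.69 CPM. All 8 region names are therefore used as labels and not as tissue names. CPM are counts scaled to a total of 1000000 per library, with TMM (trimmed mean of M values) factors from 1 joint fit of all libraries. The libraries read 1 tag near the end of each messenger, so CPM were compared between genes without division by length. A level relative to another gene still depends on how well the tags of each gene map, which was not tested.

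All 8 genes had counts in each library and all passed the filter on low counts in every region. Fkbp5 lies on the minus strand of chromosome 17 between 28399095 and 28517524 (mm10), and Fkbp4 on the minus strand of chromosome 6 between 128429735 and 128438677. Fkbp1a is on chromosome 2 (151542483 to 151561692), Fkbp8 on chromosome 8 (70527724 to 70535328) and Fkbp9 on chromosome 6 (56832059 to 56879358), all on the plus strand. Fkbp1b and Fkbp3 are on the minus strand of chromosome 12 (4833175 to 4841595 and 65062436 to 65073944), and Fkbp2 is on the minus strand of chromosome 19 (6977741 to 6980461). Of the exon bases of Fkbp3, 32.2% are also exon of Prpf39 on the opposite strand, and for Fkbp8 4.95% are shared with Kxd1. The strand setting of the counting is not given in the sources used here, so the values of Fkbp3 in particular can hold reads of its neighbour.

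The promoter windows of Fkbp5, the gene that responded, and of Fkbp4, the relative that shares its Hsp90 complex, are shown because they are the pair on which the comparison below turns. Each is the 250 bases before the RefSeq start (GRCm38.p6), written 5′ to 3′ on the strand of the gene, with matches to CCAAT and to the GC box GGGCGG, on both strands, in capitals. The Fkbp5 window spans chr17:28486150-28486399 and overlaps no annotated FKBP exon; the gene model of the count table reaches further upstream. The Fkbp4 window spans chr6:128438657-128438906, of which 21 bases are first-exon sequence in GENCODE.
Fkbp5: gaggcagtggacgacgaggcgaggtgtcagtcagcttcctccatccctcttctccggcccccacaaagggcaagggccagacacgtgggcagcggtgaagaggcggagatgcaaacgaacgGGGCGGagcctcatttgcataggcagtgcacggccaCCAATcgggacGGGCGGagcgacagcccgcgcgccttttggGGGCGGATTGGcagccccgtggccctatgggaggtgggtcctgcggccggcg
Fkbp4: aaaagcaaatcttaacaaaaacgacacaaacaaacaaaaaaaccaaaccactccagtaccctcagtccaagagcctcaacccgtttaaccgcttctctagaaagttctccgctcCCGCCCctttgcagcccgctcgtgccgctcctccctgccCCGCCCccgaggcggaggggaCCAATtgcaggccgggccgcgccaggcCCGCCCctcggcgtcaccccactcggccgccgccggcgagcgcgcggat
The Fkbp5 window held 3 GC boxes and 2 CCAAT matches, of which 1 GC box stands directly before a reversed CCAAT, and the Fkbp4 window held 3 GC boxes and 1 CCAAT match. The 8 members had 10 windows, of which 3 belong to Fkbp2. Of these windows, 7 held a GC box and 5 a CCAAT match, against 32.7% and 33.8% of 32851 windows of the same length. GC content was 68.0% for Fkbp5 and 63.2% for Fkbp4, and the median of all windows was 52.4%. A glucocorticoid response element (AGAACA and TGTTC with 3 bases between), its half-site AGAACA alone and a heat shock element (GAA, TTC and GAA with 2 bases between each) were searched on both strands as well. No window of the 8 members held any of these letters, and 0.0304%, 16.1% and 0.466% of all windows did. A match is a string of letters, and sites elsewhere in the genes were not looked at.

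Dexamethasone was compared with vehicle in each region. Fkbp5 rose in all 8 regions, between 3.14-fold (dCA1) and 7.08-fold (PFC) in mean CPM, and in none of them did the 2 arms overlap. None of the other 7 members passed the test in any region. Of all genes tested, the share called in either direction was 6.18% in CER, 6.14% in PFC, 5.63% in PVN, 5.62% in AMY, 5.45% in vCA1, 4.68% in dCA1, 3.93% in vDG and 3.70% in dDG. The share that rose, as Fkbp5 did, was 3.90% in CER, 3.86% in PFC, 3.57% in PVN, 3.54% in AMY, 3.41% in vCA1, 2.64% in vDG, 2.57% in dCA1 and 2.33% in dDG. A gene whose dexamethasone libraries all lay above its vehicle libraries was rarer, at 0.576% of genes in CER, 0.367% in PVN, 0.348% in AMY, 0.315% in PFC, 0.285% in vCA1, 0.183% in vDG, 0.172% in dCA1 and 0.105% in dDG. Among all genes ordered by p, Fkbp5 had rank 1 in AMY, rank 2 in PFC, PVN and vDG, rank 3 in dCA1 and vCA1, rank 4 in dDG and rank 6 in CER.

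**Figure D1:**
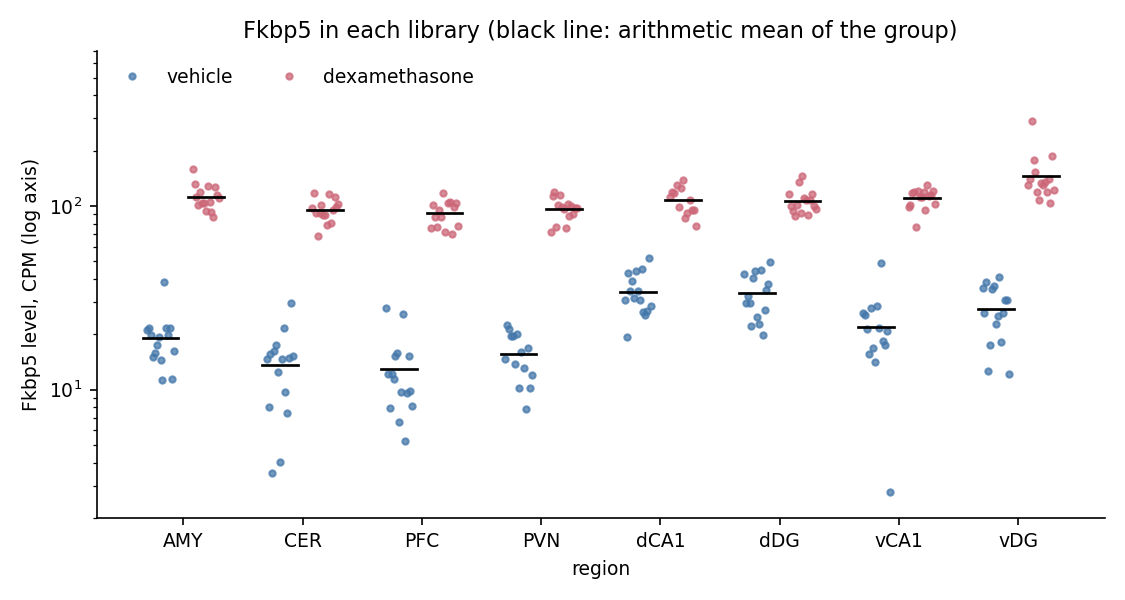
Fkbp5 level in each library, in CPM on a log axis, by region, with vehicle in blue, dexamethasone in red and black lines at the group means. In every region the lowest dexamethasone library lies above the highest vehicle library, and the 1 vDG library at 292 CPM stands apart at the top.

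In PFC, vehicle libraries held 5.25 CPM at the lowest, 11.4 at the median and 27.8 at the highest, and dexamethasone libraries 70.6, 91.4 and 118 CPM. The log2 fold change there was 2.79 ± 0.15 (SE, n = 15 and 14; adjusted p = 8.69e-20, edgeR quasi-likelihood test with Benjamini-Hochberg adjustment over all genes, as for all regional values below). PFC had the lowest vehicle mean of the 8 regions and the largest fold change in the fits to counts. With limma on the deposited log2 values, which compress low levels, vDG was the largest (1.72), followed by CER (1.601), AMY (1.55) and PFC (1.504), while dCA1 (1.11) and dDG (1.15) were again the smallest.
CER was similar, with 3.51, 14.7 and 29.7 CPM in vehicle and 68.7, 94.99 and 117 CPM in dexamethasone libraries. Its log2 fold change was 2.73 ± 0.14 (adjusted p = 5.22e-19). The arms lay far apart, with no dexamethasone library below 68.7 CPM and no vehicle library above 29.7 CPM.
For PVN the vehicle libraries held 7.86, 15.3 and 22.6 CPM and the dexamethasone libraries 71.9, 97.1 and 119 CPM. The log2 fold change was 2.58 ± 0.11 (adjusted p = 3.64e-22). The SD of its vehicle libraries, 4.60 CPM, was the smallest of the 8 regions.
In AMY the values were 11.3, 19.2 and 38.7 CPM against 86.7, 111 and 158 CPM, with a log2 fold change of 2.55 ± 0.12 (adjusted p = 2.81e-19).

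The vehicle levels of dCA1 and dDG were higher. In dCA1, vehicle libraries held 19.4, 31.5 and 52.1 CPM at the lowest, median and highest, and dexamethasone libraries 77.7, 108 and 139 CPM. In dDG the values were 19.7, 32.4 and 49.5 CPM against 87.6, 101.3 and 145 CPM. The log2 fold changes were 1.66 ± 0.12 (n = 15 and 13; adjusted p = 1.26e-13) and 1.65 ± 0.12 (n = 15 and 15; adjusted p = 2.17e-13), the smallest of the 8 regions. The arms still did not overlap, although in dCA1 the highest vehicle library (52.1 CPM) and the lowest dexamethasone library (77.7 CPM) came near each other.
In vCA1 the values were 2.76, 21.1 and 48.6 CPM against 77.1, 113 and 129.9 CPM, a log2 fold change of 2.35 ± 0.15 (adjusted p = 1.29e-15). In vDG they were 12.1, 26.2 and 41.2 CPM against 103, 133 and 292 CPM, a log2 fold change of 2.40 ± 0.16 (adjusted p = 1.21e-13). The library at 292 CPM was dexamethasone replicate 3, and without it the vDG value was 2.31 ± 0.14 (adjusted p = 1.43e-14). Counts behind these levels were low in vehicle tissue, with medians of 9 to 22 counts per library against 63 to 104 after dexamethasone, so that single vehicle libraries carry a large counting error.
The 4 libraries high in Gabra6 were the lowest of their groups for Fkbp5, at 2.76 CPM in vCA1 vehicle, 12.1 and 12.7 CPM in vDG vehicle and 103 CPM in vDG dexamethasone. Without them, a step added after these values were seen, Fkbp5 still passed in vCA1 (2.26 ± 0.12, adjusted p = 1.47e-17) and vDG (2.29 ± 0.15, adjusted p = 5.64e-13).

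In the 32 combinations of region and plate that held 2 or more libraries of each arm, the Fkbp5 difference of mean log2 CPM was 1.09 to 3.34. In the 32 such combinations of region and date of punching it was 1.31 to 3.34. The arms overlapped in no region, so the sign in these subsets was fixed beforehand and only the sizes are informative. Levels of other cells' markers moved in the same libraries. Of 6 microglia markers, Cx3cr1 and P2ry12 fell in all 8 regions while C1qa, C1qb and Csf1r were called in none, nor was Tmem119 in the 2 regions where it was tested. Their summed level ranged from 189 to 904 CPM in vehicle and from 101 to 402 CPM in dexamethasone libraries. Of 6 endothelial markers, Flt1 and Slco1a4 fell in all 8 regions, Pecam1 and Ly6c1 were called in none, Cldn5 and Cdh5 were below the filter, and the sum ranged from 205 to 904 CPM and from 161 to 499 CPM. In vCA1, 2 of 6 dentate markers rose (Dsp and Npnt), with sums of 61.7 to 179.8 CPM and 92.1 to 437 CPM. Prox1 fell in CER (-1.04 ± 0.14, adjusted p = 3.72e-07), AMY (-0.47 ± 0.13, adjusted p = 0.0247) and PVN (-0.35 ± 0.11, adjusted p = 0.0343). These were among the regions with the larger Fkbp5 responses, but Prox1 was not called in PFC, where the Fkbp5 fold change was largest. Ttr, the choroid plexus transporter, fell in vCA1 (-2.27 ± 0.56, adjusted p = 0.00692). Of the other lists, 1 of 6 astrocyte markers rose and 1 fell in dCA1, 1 of 6 oligodendrocyte markers fell in AMY, 1 of 5 choroid plexus markers fell in vCA1 (Ttr again), 1 dentate marker fell in dCA1, and 0 of 6 neuronal and 0 of 5 blood markers were called. Gabra6 was at 0 in the vehicle arm of CER and dCA1, and no marker was at 0 in both arms of a region. Fewer cells of a type and less messenger per cell cannot be told apart in punched tissue. Except for the dentate level, the part of these cell types in the Fkbp5 values was not tested. Once the dentate level was added as a covariate, the Fkbp5 value in vCA1 was 2.33 (adjusted p = 1.75e-13).

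The size of the Fkbp5 response differed among regions. A joint fit of all libraries with a term for region by treatment gave F = 10.4 (adjusted p = 2.67e-08), and 1.17% of 11053 genes tested passed. For the other 7 members the same test gave unadjusted p-values of 0.325 to 0.836, and none passed. All 28 pairs of regions were then compared for Fkbp5, a step added after the joint result was seen. The response was lower in dCA1 and in dDG than in AMY, CER, PFC and PVN, by 0.88 to 1.13 on the log2 scale (8 pairs, adjusted p from 0.000243 to 0.0109). No other pair passed. Without the 4 libraries high in Gabra6 F was 11.7 (adjusted p = 1.46e-09), and 8 pairs passed, each of them again with dCA1 or dDG. The responses of dCA1 and dDG were also below those of vCA1 and vDG, by 0.68 to 0.73, with unadjusted p-values of 8.34e-05 to 0.000473, but after adjustment over all genes these 4 contrasts gave 0.171 to 0.463. All pair contrasts came from the joint fit without animal as a block, and the pairs were not tested with that block. Their adjustment covered the genes and not the number of pairs. Between dCA1 and dDG the difference was -0.02 ± 0.18.

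Fold change and level give different orders. In CPM, the difference between arm means was 73.0 in dCA1 and 73.1 in dDG, 78.1 in PFC, 80.4 in PVN, 81.8 in CER, 88.5 in vCA1, 93.3 in AMY and 119 in vDG. The vehicle means ranged over 2.66-fold and the dexamethasone means over 1.605-fold. In vehicle libraries Fkbp5 differed among regions (F = 22.1, adjusted p = 1.47e-17, edgeR fit with animal as a block), as did 73.3% of all genes. From the highest, the order of the means was dCA1 (34.1 ± 9.0 CPM, SD, n = 15), dDG (33.5 ± 9.4), vDG (27.3 ± 9.4), vCA1 (21.8 ± 10.2), AMY (19.0 ± 6.5), PVN (15.5 ± 4.6), CER (13.7 ± 6.7) and PFC (12.9 ± 6.5). No neighbours in this order differed by the test (adjusted p from 0.115 to 0.997), whereas 18 of the 28 pairs did. The highest pair, dCA1 and dDG, lay above vCA1, AMY, PVN, CER and PFC.

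After dexamethasone the order of the means was another, and this comparison was added after the vehicle result was seen (F = 10.8, adjusted p = 9.07e-10; 75.0% of genes passed). The vDG mean was 146 ± 46 CPM (SD, n = 15) and lay above each of the other 7 regions (adjusted p from 3.7e-09 to 0.00105). Without dexamethasone replicate 3 it still did (adjusted p from 2.97e-08 to 0.00787). The next means were AMY (112 ± 18 CPM), vCA1 (110 ± 13), dCA1 (107 ± 18), dDG (107 ± 16), PVN (96.0 ± 13.8), CER (95.4 ± 13.7) and PFC (91.0 ± 14.7). Among those 7, no neighbours differed by the test (adjusted p from 0.206 to 0.996). PFC, CER and PVN were the lowest of the 8 regions in both arms. Whether the order differed between arms was not tested beyond the joint test of the response given above.

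Fkbp4, whose product competes with FKBP51 for the receptor complex, was compared with Fkbp5 in the same libraries. Its log2 fold change was negative in all 8 regions, from -0.20 in PFC to -0.01 in vDG, and none passed (adjusted p from 0.326 to 0.998). Under the other scalings and filters tried, 32 of 32 of its regional values were negative, which repeats the signs of 8 regional values from the same libraries. In vDG Fkbp4 was positive with date and plate as factors (0.00229) and with limma on the deposited values (0.0129). Within plates Fkbp4 was lower after dexamethasone in 26 of 32 combinations, and within dates of punching in 25 of 32. These combinations divide the same libraries and are not separate observations. In PFC the vehicle libraries held 68.7, 92.8 and 156 CPM at the lowest, median and highest and the dexamethasone libraries 55.4, 77.3 and 154 CPM, and in vCA1 they held 66.0, 99.5 and 119 CPM against 55.7, 83.5 and 107 CPM. The arms overlapped over most of their range in both. A test of the response averaged over the 8 regions, with animal as a block, was added after these values were seen. It gave -0.13 ± 0.04 for Fkbp4 (adjusted p = 0.00709, limma with voom weights), and Fkbp4 fell by this test, as did 11.0% of all genes. The median over all genes was -0.01. Counts summed per animal over the 26 animals with all 8 regions gave -0.15 ± 0.04 (adjusted p = 0.00244). Fkbp5 rose by 2.37 ± 0.06 on the same scale, and the other 6 members did not pass (adjusted p from 0.121 to 0.917).

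**Figure D2:**
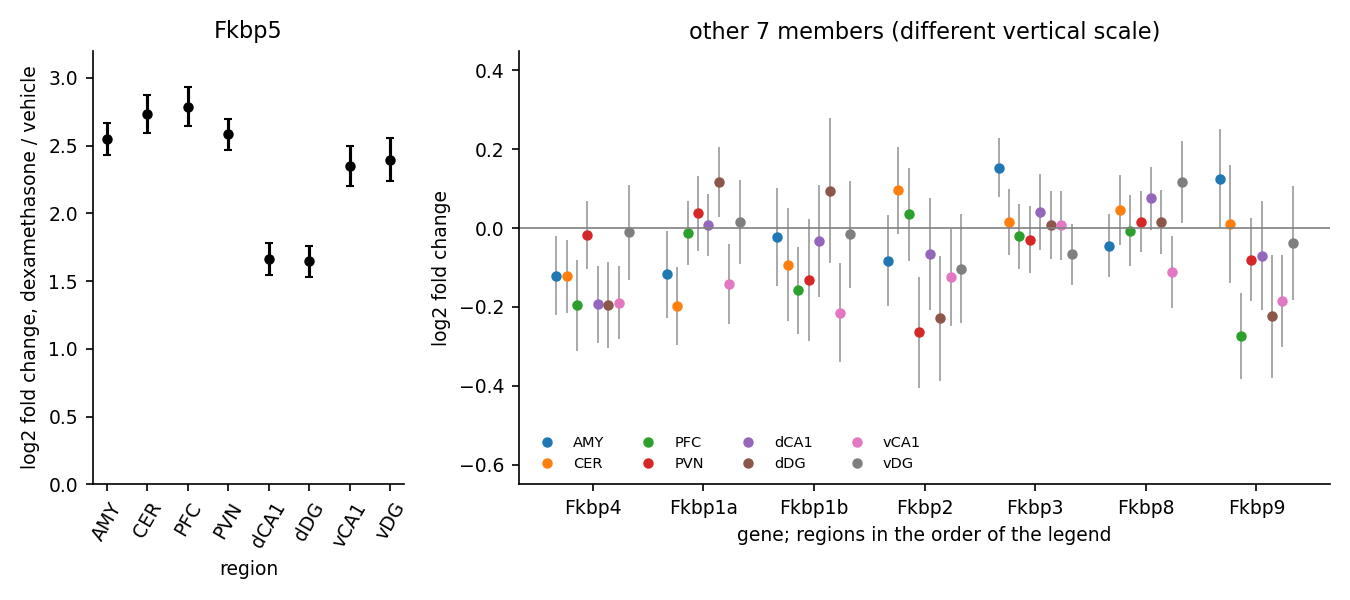
Log2 fold change of dexamethasone against vehicle with its standard error for Fkbp5 (left, by region) and the other 7 genes (right, 8 regions each, on a narrower scale). Fkbp5 lies between 1.65 and 2.79, with dCA1 and dDG lowest, and all values of the other genes lie between -0.27 and 0.15.

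Because Fkbp4 is the more abundant of the pair in vehicle tissue, the ratio of the 2 counts within a library was examined. In vehicle libraries the median ratio of Fkbp5 to Fkbp4 ran from 0.10 in CER to 0.293 in dCA1, and Fkbp5 exceeded Fkbp4 in 0 of 118 libraries. In dexamethasone libraries the median ran from 0.687 in CER to 1.43 in vDG, and Fkbp5 exceeded Fkbp4 in 65 of 117 libraries. By region these were 13 of 15 in vDG, 12 of 15 in vCA1, 10 of 15 in AMY and dDG, 10 of 13 in dCA1, 9 of 14 in PFC, 1 of 15 in PVN and 0 of 15 in CER. In CER and PVN, where Fkbp4 was highest in vehicle tissue, Fkbp5 stayed below Fkbp4 in nearly every library. The mean log2 ratio was higher after dexamethasone by 1.78 in dCA1 and in dDG and by up to 2.86 in PFC. These ratios are built from the Fkbp5 and Fkbp4 counts already described, so they restate the rise of Fkbp5 on another scale and are given with no test.

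**Figure D3:**
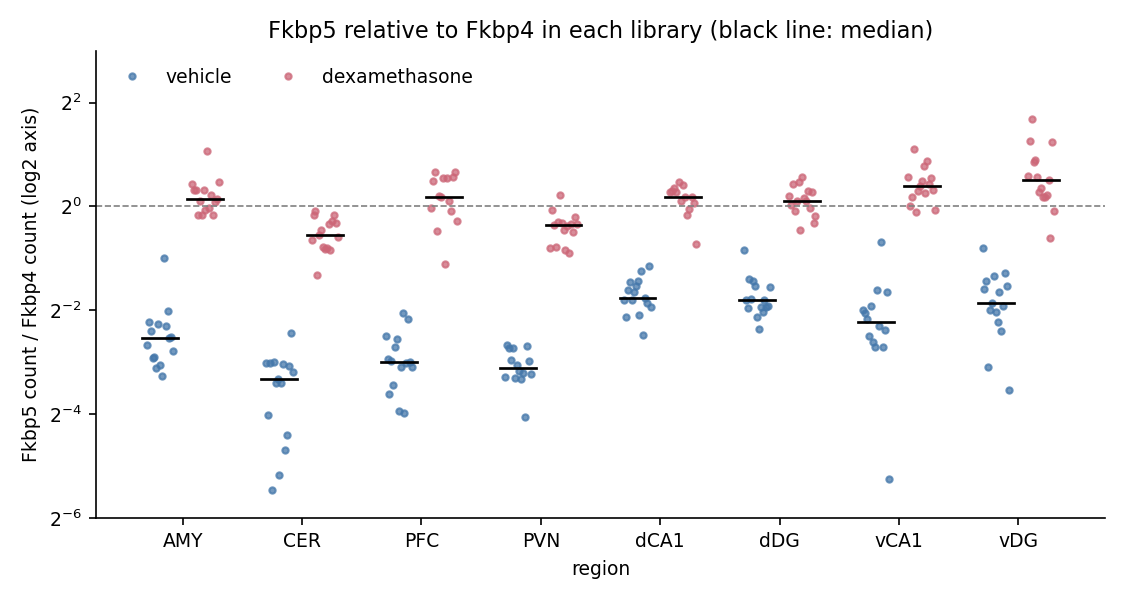
Ratio of the Fkbp5 count to the Fkbp4 count in each library, on a log2 axis, by region, with vehicle in blue, dexamethasone in red and black lines at the medians. All 118 vehicle libraries lie below the dashed line at 1, and 65 of the 117 dexamethasone libraries lie above it, with none of them in CER.

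Fkbp4 itself differed among vehicle regions (F = 9.25, adjusted p = 1.81e-08). It was highest in CER (152 ± 34 CPM, SD, n = 15) and PVN (129.8 ± 24.7 CPM, n = 14) and lowest in vCA1 (96.1 ± 13.6 CPM, n = 14) and PFC (95.3 ± 22.4 CPM, n = 15). CER and PVN, the highest for Fkbp4, were thus among the 3 lowest for Fkbp5.

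Fkbp1a and Fkbp1b encode small cytosolic members, FKBP12 and its close relative, which bind FK506 and rapamycin and stabilise calcium release channels. Fkbp1a was the most abundant member in every group, with vehicle means from 402 CPM in PVN to 795 CPM in dCA1, and Fkbp1b was among the least abundant, from 29.6 CPM in PVN to 67.6 CPM in vCA1. Neither passed in any region. In CER, where Fkbp1a came nearest (p = 0.0547, adjusted 0.374), vehicle libraries held 261, 414 and 802 CPM and dexamethasone libraries 312, 379 and 458 CPM. The dexamethasone libraries lay inside the vehicle range. Fkbp1a and Fkbp1b shared their lowest region but not their highest. CER was low for Fkbp1a (435 ± 122 CPM) and high for Fkbp1b (59.9 ± 17.3 CPM), and both genes differed among vehicle regions (F = 26.9 and 20.5).

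Fkbp8 encodes FKBP38, which is anchored in the outer mitochondrial membrane and binds Bcl2. It was the most even of the 8 genes across regions, with vehicle means from 149.5 CPM in vDG to 186 CPM in PFC, a 1.25-fold range. Its regional differences passed in vehicle tissue (F = 3.18, adjusted p = 0.00678) but not without the libraries of RIN under 5 (adjusted p = 0.0678), and they did not pass after dexamethasone (adjusted p = 0.232). Its response ranged from -0.11 in vCA1 to 0.12 in vDG.

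Fkbp3 encodes FKBP25, a nuclear member. Its vehicle means ran from 192.5 CPM in dCA1 and dDG to 275 CPM in CER. In AMY it reached an unadjusted p of 0.0483 with a log2 fold change of 0.15 ± 0.08 (adjusted p = 0.362), where vehicle libraries held 185, 242 and 264 CPM and dexamethasone libraries 186, 253 and 315 CPM. The arms overlapped. The part of reads from Prpf39, which shares exon bases with Fkbp3, was not tested.

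Fkbp2 and Fkbp9 encode FKBP13 and FKBP60, which reside in the endoplasmic reticulum. Fkbp2 ran from 42.7 CPM in dCA1 to 74.8 CPM in CER in vehicle tissue, and Fkbp9 from 33.1 CPM in CER to 49.8 CPM in dDG. CER was highest for Fkbp2 and lowest for Fkbp9. Fkbp9 in PFC had the smallest p of the 56 tests outside Fkbp5, with 38.0, 45.3 and 59.1 CPM in vehicle and 19.3, 40.6 and 49.0 CPM in dexamethasone libraries. Its log2 fold change was -0.27 ± 0.11 (p = 0.0151, adjusted p = 0.157). The arms overlapped between 38.0 and 49.0 CPM.

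**Figure D4:**
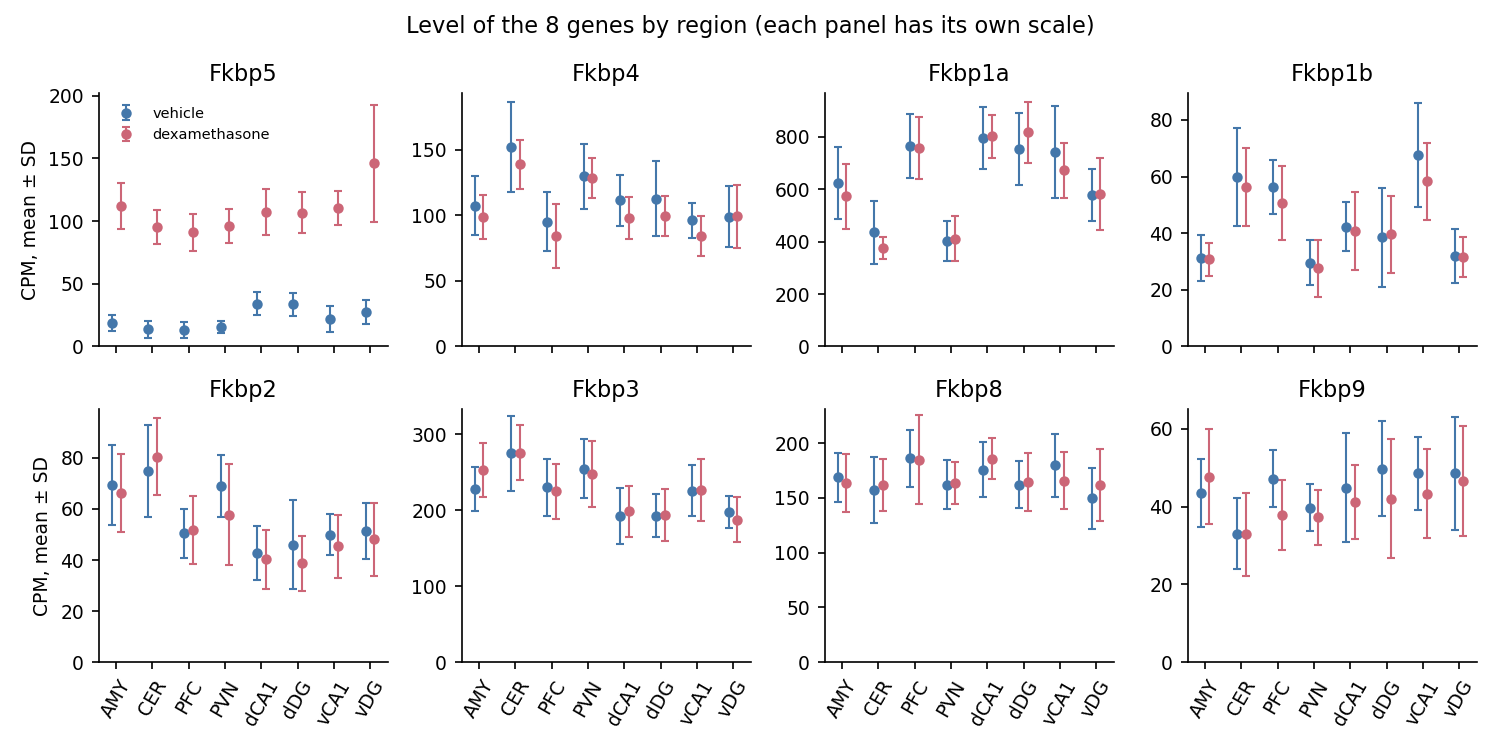
Mean level of each of the 8 genes in CPM with its SD, by region, for vehicle (blue) and dexamethasone (red), each panel on its own scale from 0. Only in the Fkbp5 panel do the arms separate; Fkbp1a is the most abundant gene, and CER is high for Fkbp4, Fkbp2 and Fkbp3 and low for Fkbp1a and Fkbp9.

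Over the 56 tests of the 7 genes other than Fkbp5, 0 passed, 2 had an unadjusted p under 0.05, against 13.8% of all tests, and the smallest adjusted p was 0.157. DESeq2 and limma on the deposited log values called none either. The 95% intervals of these 56 changes, not adjusted for their number, reached from -0.54 to 0.45 on the log2 scale at their widest. Those of Fkbp9 in PFC, Fkbp3 in AMY, Fkbp4 in dCA1 and vCA1 and Fkbp1a in CER did not include 0, and the last 3 had an unadjusted p of at most 0.0547 by the quasi-likelihood test, just over its threshold of 0.05. The median of the 56 values was -0.04, beside medians of all genes of -0.02 to 0.00 by region.

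In the sum of the 8 genes' counts, Fkbp5 made up 0.88% to 2.44% in the vehicle groups and 6.20% to 11.4% in the dexamethasone groups. Fkbp1a made up 35.8% to 55.1% and 31.0% to 54.3%, and Fkbp4 6.56% to 12.6% and 5.62% to 11.4%.

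Libraries of the same mouse were compared next, a step added after the regional results were seen. In the vehicle arm Fkbp5 differed among the 15 animals once region was accounted for (F = 3.67, adjusted p = 0.00745), as did 1.37% of 10451 genes, among which it ranked 73 by p. Vehicle replicate 10 was above the region mean in 8 of 8 libraries, by 0.68 on average on the log2 scale (16.0 to 48.6 CPM). The lowest animal, vehicle replicate 15, was 0.40 below on average, and averaged -0.04 over its 6 libraries outside those high in Gabra6. Without all 4 such libraries the test gave F = 3.92 (adjusted p = 0.00395). The call rested on replicate 10: without it F was 2.02 (adjusted p = 0.295), whereas leaving out any 1 of the other 14 animals left the adjusted p between 0.00143 and 0.0267. The 3 other vehicle animals punched on the date of replicate 10, replicates 9, 11 and 12, averaged -0.19, -0.32 and -0.27. Within dates, with plate as a factor, F was 4.92 (adjusted p = 0.00216; 0.679% of genes). In the dexamethasone arm the same test gave F = 1.12 (adjusted p = 0.735; 0.722% of genes), with animal means from -0.11 to 0.17. The difference between the arms was not tested, and no other member passed in either arm.

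**Figure D5:**
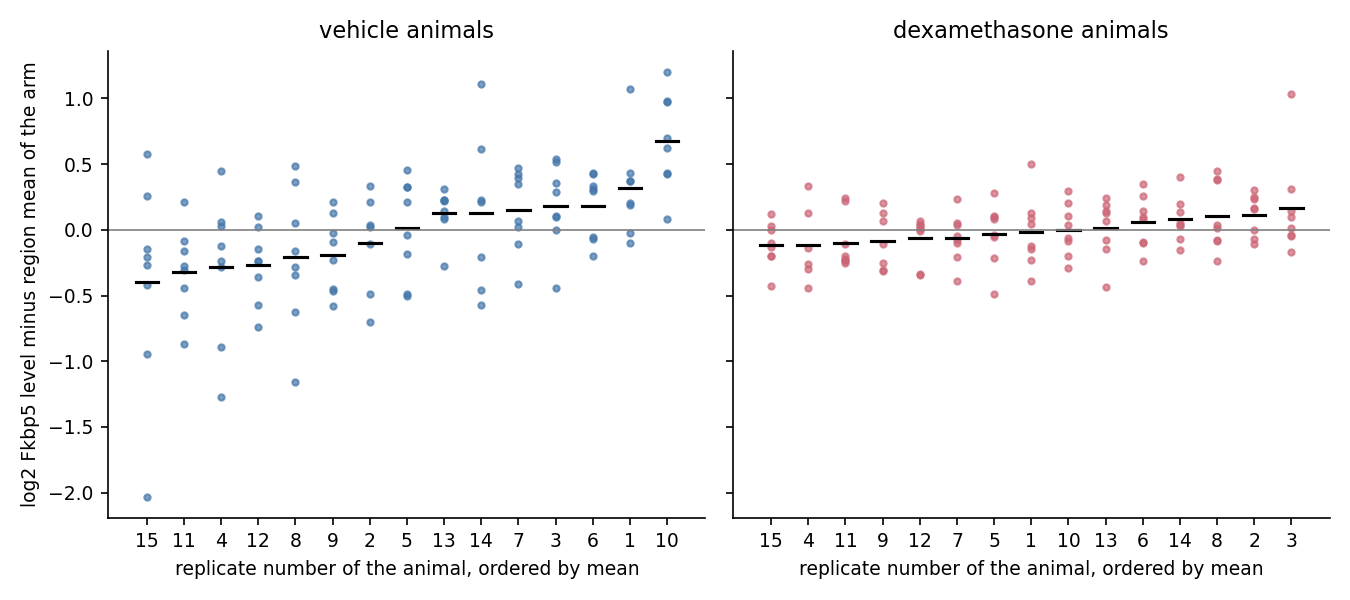
Fkbp5 level of each library as log2 CPM minus the mean of its region and arm, by animal, with black lines at the animal means, for 15 vehicle (left) and 15 dexamethasone (right) animals. Vehicle animal means run from -0.40 to 0.68, with all 8 libraries of replicate 10 above 0, and dexamethasone animal means from -0.11 to 0.17.

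Other genes that work with these proteins were read from 4 lists. Of 17 genes of the Hsp90 steroid receptor cycle, all were tested in 7 regions and 16 in PVN. In each region 0 rose and 1 fell, and the one was Nr3c1 (the glucocorticoid receptor), with log2 fold changes from -0.89 ± 0.11 in PFC to -0.50 ± 0.08 in PVN. Hsp90aa1 and Hsp90ab1, which encode cytosolic Hsp90, Ptges3 (p23), Stip1 (Hop) and Hspa8 (Hsc70) did not pass in any region. These falls were 8 of 135 tests of this list (5.93%), above the share of all genes that fell, which was 2.28% in CER and PFC, 2.11% in dCA1, 2.08% in AMY, 2.06% in PVN, 2.04% in vCA1, 1.37% in dDG and 1.29% in vDG. All 8 come from 1 gene, measured in regions of the same animals, so the share describes Nr3c1 and not the other genes of the list. The regional medians of this list ran from -0.06 to 0.02. Among 9 other FKBP genes, 4 were tested and 1 passed, Fkbp14 in CER (0.57 ± 0.18, adjusted p = 0.0469), a collagen chaperone of the endoplasmic reticulum. That is 1 rise in 29 tests of this list (3.45%), within the 2.33% to 3.90% of all genes that rose by region. Fkbp6, Fkbp10, Fkbp11, Fkbpl and Aipl1 were below the filter in every region.

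Among 14 cyclophilins, the isomerases that bind cyclosporin instead of FK506, 10 were tested. Ppif, which encodes the mitochondrial cyclophilin D, rose in dCA1 (0.53 ± 0.12, adjusted p = 0.0060) and dDG (0.72 ± 0.14, adjusted p = 0.000508), and was 0.40 ± 0.13 in vCA1 (adjusted p = 0.0558) and -0.13 to 0.07 in the other 5 regions. No other cyclophilin passed. The last list, of 12 genes, held targets of FK506 and rapamycin together with calcium release channels and receptors of the TGF-beta family. Of these, Acvr1 fell in vCA1 (-0.65 ± 0.16, adjusted p = 0.0063) and Tgfbr1 in dCA1 (-0.55 ± 0.15, adjusted p = 0.0168). Both are receptors of the TGF-beta family and not targets of the drugs. The calcineurin genes Ppp3ca, Ppp3cb, Ppp3cc and Ppp3r1 and the kinase gene Mtor did not pass in any region. These were 2 rises in 70 tests of cyclophilins (2.86%) and 2 falls in 91 tests of the list of 12 genes (2.20%). Both shares lie within the range by region of all genes that moved the same way, so the counts say nothing particular of these lists. The medians of the last 3 lists, by region, lay between -0.13 and 0.15.

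The genes whose group means followed those of Fkbp5 most closely over the 16 groups were Ddit4 (r = 0.976), Tiparp (0.965), Rin2 (0.961), Trp53inp1 (0.960) and Gadd45g (0.955), out of 7924 genes tested in all regions. Each of the 5 rose in all 8 regions, Ddit4 by 0.96 to 1.72 and Trp53inp1 by 1.16 to 1.90 on the log2 scale. The group means share libraries and are split by treatment, so the values describe and do not test. For Fkbp4 the closest were Slc39a7 (0.956) and Apc2 (0.931), for Fkbp1a Sipa1l1 (0.986) and Nrgn (0.984), and for Fkbp1b Uqcrfs1 (0.929) and Ccdc149 (0.897). For Fkbp2 they were Samd4 (0.968) and Usp6nl (0.967), for Fkbp3 Gm17018 (0.971) and Habp4 (0.961), for Fkbp8 Csnk1g2 (0.926) and Uba2 (0.903), and for Fkbp9 Arid1a (0.833) and Mylip (0.829). None of the genes closest to the 7 other members passed in more than 1 region. Between members, Fkbp2 and Fkbp3 were most alike over the groups (0.862), Fkbp1a and Fkbp2 most opposed (-0.801), and Fkbp5 stood between -0.32 and 0.07 with each of the others.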

How the data were processed

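The authors deposited whole-number counts per gene, made with featureCounts 1.6.4 after STAR 2.6.0a and UMI-tools 0.5.4 on mm10, per the submitters' processing notes. They also deposited log2 variance-stabilised values per region, made with DESeq2 1.30.1 per the same notes, for 228 of the 235 libraries. The annotation and strand setting are not given in the sources used here. Symbols came from GENCODE M21 and promoter windows from RefSeq (GRCm38.p6), where all 8 members matched. Groups came from the sample titles, and replicates are separate mice.

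Each region was fitted to the counts with edgeR 4.0.16 (filterByExpr, TMM, estimateDisp, glmQLFit, glmQLFTest), without covariates, at an adjusted p of 0.05 over all genes. Joint fits covered all 235 libraries. The response averaged over regions used limma 3.58.1 (voom, duplicateCorrelation). Mean log2 ratios are differences of log2 CPM with a prior count of 2, while median ratios and the numbers of libraries use raw counts. With a prior count of 0.5 the rise of the Fkbp5 to Fkbp4 ratio was 3.07 in PFC and 1.84 in dCA1 and dDG. The fits were tested on simulated data. In the simulated PFC comparison of 9161 genes, 100% of changes of 1 and 100% of changes of 2.5 (log2) were recovered, with 7 false calls. The changed genes were drawn from those with higher counts. Levels as low as Fkbp5 in vehicle tissue, and changes as small as those of the other members, were not covered there. Simulated tests of the response among regions, the level among animals and the averaged response recovered 100%, 99% and 98.5%. Their false calls were 5, 8 and 6.

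Named genes were all members, up to 4 genes per list called in most regions, the 5 most like Fkbp5 and the 2 most like each other member. The members and lists were chosen with earlier results of these data known. Alternatives were DESeq2 1.42.0, upper-quartile scaling, other filters, covariates, a replicate block, limma on the deposited log2 values, and fits without libraries of low RIN or absent from those tables, and, chosen after the data were seen, fits without the 4 libraries of 100 or more Gabra6 counts.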

Additional observations from a re-analysis of the deposited data

Results flagged for a closer look

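The response of Fkbp5 differed among the 8 regions by the test of region and treatment together (F = 10.4, adjusted p = 2.67e-08 by edgeR). Its log2 fold changes ran from 1.65 in dDG and 1.66 in dCA1 to 2.79 in PFC, and dCA1 and dDG were also the regions with the highest vehicle means (34.1 and 33.5 CPM). No other member differed by this test.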

How the results depend on the processing

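Fkbp5 kept its direction and its call in 85 of 85 alternative fits of the 8 regional responses. Under the fits to counts the values moved little, and limma on the deposited log2 values, which compress low levels, gave 1.11 to 1.72 in place of 1.65 to 2.79, with vDG and not PFC the largest. The filter of 10 counts in every library left Fkbp5 untested in 7 regions. The test among 8 regions passed with animal as a block (F = 13.3), without a filter (F = 10.4), without libraries of RIN under 5 (F = 9.25) and by the DESeq2 likelihood ratio test (statistic 82.4). For the other 7 members, 0 of 653 alternative values passed, with a smallest adjusted p of 0.0891. Same-numbered libraries of the 2 arms shared the plate, and 109 of 115 pairs shared the date of punching. The correlation of their deviations was over 0.1 in 73 of the 115 pairs, not in each, so the numbers were not taken as pairs in the fits reported. Its regional medians were 0.05 to 0.22, against -0.03 to 0.00 between other numbers, and 32 libraries correlated best with their own number. The shared plate and date are part of the design, but the labels do not name the numbers as pairs. The replicate block left all calls of the members in place, with Fkbp5 in PFC at 2.78, and moved the genes called in dDG from 316 to 543.

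Of the uncalled values, 28 changed sign, to values from -0.0286 to 0.0300. With date and plate as factors these were Fkbp1b in AMY (0.00113) and Fkbp4 in vDG (0.00229). Limma on the deposited values gave -0.0286 for Fkbp9 in CER, -0.00279 for Fkbp2 and 0.00168 for Fkbp3 in PFC, -0.00812 for Fkbp1a in dCA1, and 0.0129 for Fkbp4 and 0.0300 for Fkbp1b in vDG. Without the 7 libraries absent from those tables, Fkbp9 in CER gave -0.00493, Fkbp3 in PFC 0.00541, Fkbp1a in dCA1 -0.00580 and Fkbp1b in vDG 0.00152. The replicate block gave -0.00923 for Fkbp9 in CER. Upper-quartile scaling gave -0.00397 for Fkbp8 in PVN, -0.0106 for Fkbp3 in dDG and -0.00216 for Fkbp8 in dDG, and RIN as a covariate -0.000868 for Fkbp8 in PVN. Without libraries of RIN under 5, Fkbp1a in dCA1 gave -0.0156, Fkbp3 in dDG -0.0141 and Fkbp8 in dDG -0.0171. The 10-count filter gave -0.00830 and -0.000766 for Fkbp3 and Fkbp8 in dDG, and leaving out mitochondrial genes and Gm42418 gave -0.00471 for Fkbp3 in dDG. With the dentate level as a covariate, Fkbp2 in vCA1 gave 0.0245, Fkbp3 in vCA1 -0.00455 and Fkbp1a in vDG -0.00376. Without the 4 libraries high in Gabra6, Fkbp1a in vDG gave -0.00593 and Fkbp3 in vCA1 -0.0162. The cause was not tested.

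Counts of all genes called fell under the 10-count filter, which tests fewer genes, to 188 in dDG and 345 in PFC at the ends, from 316 and 565. In vCA1 they fell from 497 to 279 with the dentate level as a covariate, and in dDG limma on the deposited values called 479. Regional differences of Fkbp9 after dexamethasone did not pass without libraries of RIN under 5 (adjusted p = 0.0578). Fkbp5 counts were lower in vehicle tissue than after dexamethasone, so depth limits its vehicle values more. Intervals here cover the spread between mice, counting error included.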
